A study of Homo sapiens with 2 samples.

Results

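The sirtuins SIRT1 to SIRT7 were followed in H1299 cells, which were grown out of a lymph node metastasis of a human non-small cell lung cancer. Their rows were taken from the deposited gene table by symbol, and all 7 were present among the 38637 genes listed. The table holds 1 PHF12 knockdown library and 1 control library of poly(A)-selected RNA. Both carry the genotype label wild type. The knockdown library's treatment label gives PHF12 KD and its title carries the prefix si, while the control library's treatment label gives none and its title ends in nc. The labels do not say whether the control cells were given a siRNA. PHF12 is a PHD finger protein of Sin3 corepressor complexes, which hold the zinc-dependent deacetylases HDAC1 and HDAC2, and the series title names HDAC1, EGFR and AKT as its context. With 1 library per group no difference below has a replicate check, no p-value was made, and every interval is a 95% interval that covers counting error only.

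Sirtuins remove acetyl and longer acyl groups from lysines, and some of them also transfer ADP-ribose. Each round of deacylation uses up a molecule of NAD+ and releases nicotinamide, which sets the family apart from the zinc-dependent histone deacetylases and ties its activity to NAD+ supply. SIRT1, SIRT6 and SIRT7 work mainly in the nucleus, SIRT2 mainly in the cytosol, and SIRT3, SIRT4 and SIRT5 in mitochondria. In tumours, lung cancer included, members have been described both as promoting and as restraining growth.

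The knockdown library held 26084594 counts and the control library 24740581. PHF12 itself had 756 counts (8.71 TPM) in the knockdown library and 947 counts (11.4 TPM) in the control library, a fold of 0.753 (0.683 to 0.829). The targeted RNA was thus lower but far from absent in the knockdown library. TPM (transcripts per 1000000) is the count per gene length scaled to the same sum in each library. The keratins KRT8 and KRT18 and the mesenchymal filament gene VIM were abundant, between 888 TPM for KRT8 in the knockdown library and 5349 TPM for VIM in the control library, whereas the lung markers SFTPC and NKX2-1 were at 0 and at most 0.805 TPM. The keratins were lower in the knockdown library, KRT8 at a log2 ratio of −0.40 (−0.42 to −0.37) and KRT18 at −0.33 (−0.35 to −0.31), farther from 0 than any sirtuin. The epithelial cadherin gene CDH1 was at 0 counts in both libraries. The 7 markers of blood, endothelial, liver and glial cells reached at most 1.27 TPM in the knockdown library and 0.773 TPM in the control library, with PTPRC and CD3E at 0 in both.

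All 7 sirtuins were transcribed in H1299, from a few TPM for SIRT4 to above 80 TPM for SIRT2, and none of them stood as far apart between the libraries as a ratio of 5 to 4, a log2 ratio of 0.32 in either direction. This limit is used throughout to count genes as lower or higher. A mean of 1 CPM or more (counts per 1000000 of scaled library size) was reached by 14559 genes, of which 9.41% were lower and 8.28% higher in the knockdown library by this limit. A fold of 1.5, which 2.29% of these genes passed downwards and 2.16% upwards, is wider. That 0 sirtuins passed it follows from 0 at the first limit. All 7 sirtuins were above that minimum in each library by itself. The log2 ratio, knockdown over control, was below 0 for 6 of the 7, against 51.6% of the 14559 genes. The median over the sirtuins was −0.11, against −0.0074 over all genes measured. In RNA from a whole culture, fewer cells of a kind and less RNA per cell cannot be told apart.

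**Figure D1:**
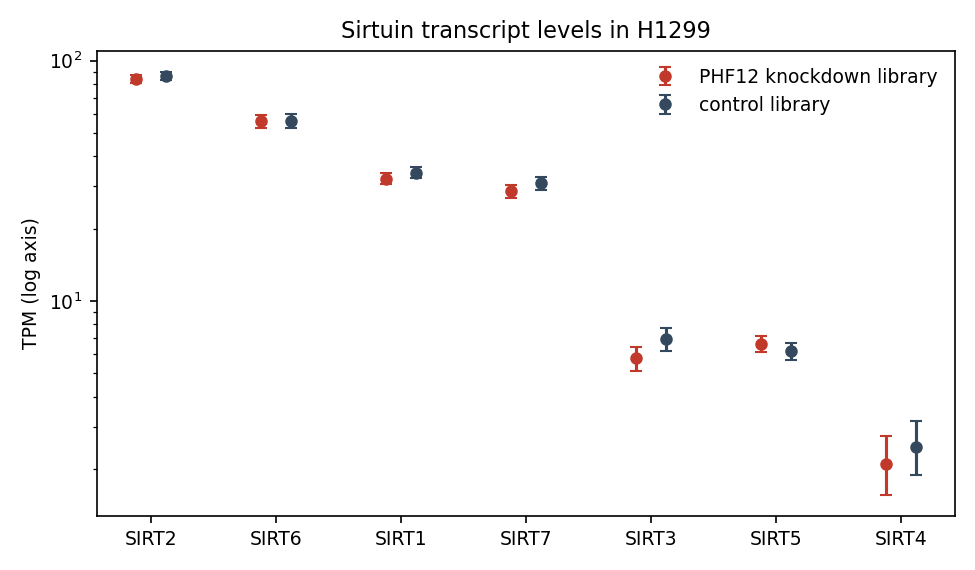
Deposited TPM of each sirtuin (log axis) in the PHF12 knockdown library (red, left of each pair) and the control library (dark, right), with bars for the 95% Poisson interval of the count. SIRT2 is the most abundant at 83.7 TPM in the knockdown library and 86.1 TPM in the control library, SIRT4 is the least abundant, and SIRT3 and SIRT5 change places between the libraries.

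Among the nuclear members, SIRT1 (chr10:67884656-67918390, plus strand, hg38) deacetylates histones and regulators such as FOXO factors and PGC-1alpha. It had 1332 counts (32.3 TPM) in the knockdown library and 1354 counts (34.2 TPM) in the control library. After scaling to library size the log2 ratio was −0.11 (−0.22 to 0.0019), so the interval just reached no difference.

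SIRT6 (chr19:4174109-4182563, minus strand) acts on histone H3 at telomeres and at glycolytic genes. It gave nearly the same level in both libraries, with 982 counts (55.8 TPM) in the knockdown library and 945 counts (56.0 TPM) in the control library. Its log2 ratio of −0.03 (−0.16 to 0.10) was the closest to 0 of the family, and 88.2% of all genes measured lay farther from 0.

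SIRT7 (chr17:81911939-81918176, minus strand) is enriched in the nucleolus and is linked to transcription of ribosomal RNA genes. It had 931 counts (28.6 TPM) in the knockdown library and 967 counts (30.9 TPM) in the control library, a log2 ratio of −0.14 (−0.27 to −0.0081). The interval ended just below 0 under the TMM scaling used here, and it included 0 when libraries were scaled by total counts or by DESeq2 size factors.

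The cytosolic member SIRT2 (chr19:38878555-38899733, minus strand), known as a tubulin deacetylase, was the most abundant sirtuin transcript. It had 2353 counts (83.7 TPM) in the knockdown library and 2323 counts (86.1 TPM) in the control library. The log2 ratio was −0.07 (−0.15 to 0.02), the narrowest interval of the family.

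The mitochondrial members were the least abundant per length, and they held the lowest and the highest log2 ratio of the family. Of the pairs among them, only SIRT3 and SIRT5 were told apart by counting error. SIRT3 (chr11:215030-236931, minus strand), the main mitochondrial deacetylase, had 299 counts (5.77 TPM) in the knockdown library and 344 counts (6.92 TPM) in the control library. Its fold of 0.820 (0.70 to 0.960), a log2 ratio of −0.29 (−0.52 to −0.06), was the lowest of the family and lay just inside the limit. Still, 21.6% of the genes measured lay farther from 0 than SIRT3. SIRT3 and SIRT7 were the 2 sirtuins whose interval lay below 0, which held for 20.9% of all genes measured, and no sirtuin had an interval above 0, which held for 20.3%.

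SIRT4 (chr12:120291780-120313249, plus strand), which restrains glutamate dehydrogenase and removes lipoyl groups from the pyruvate dehydrogenase complex, was the least abundant. It had 53 counts (2.09 TPM) in the knockdown library and 60 counts (2.47 TPM) in the control library. The log2 ratio of −0.26 was close to that of SIRT3, but at this depth its interval ran from −0.82 to 0.29. That interval included no difference and passed the limit on the lower side only.

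SIRT5 (chr6:13574217-13615158, plus strand) removes succinyl, malonyl and glutaryl groups. It was the only sirtuin with a log2 ratio above 0, at 0.08 (−0.09 to 0.24), with 647 counts (6.61 TPM) in the knockdown library and 579 counts (6.17 TPM) in the control library. Its interval included no difference.

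For SIRT1, SIRT2, SIRT5, SIRT6 and SIRT7 the whole counting interval lay within the limit, between log2 ratios of −0.32 and 0.32. This held for 50.1% of all genes measured. A larger difference for these 5 sirtuins was therefore outside what counting error allows between these libraries, though how far repeat cultures vary was not measured. For SIRT3 and SIRT4 the interval extended past the limit on the lower side.

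**Figure D2:**
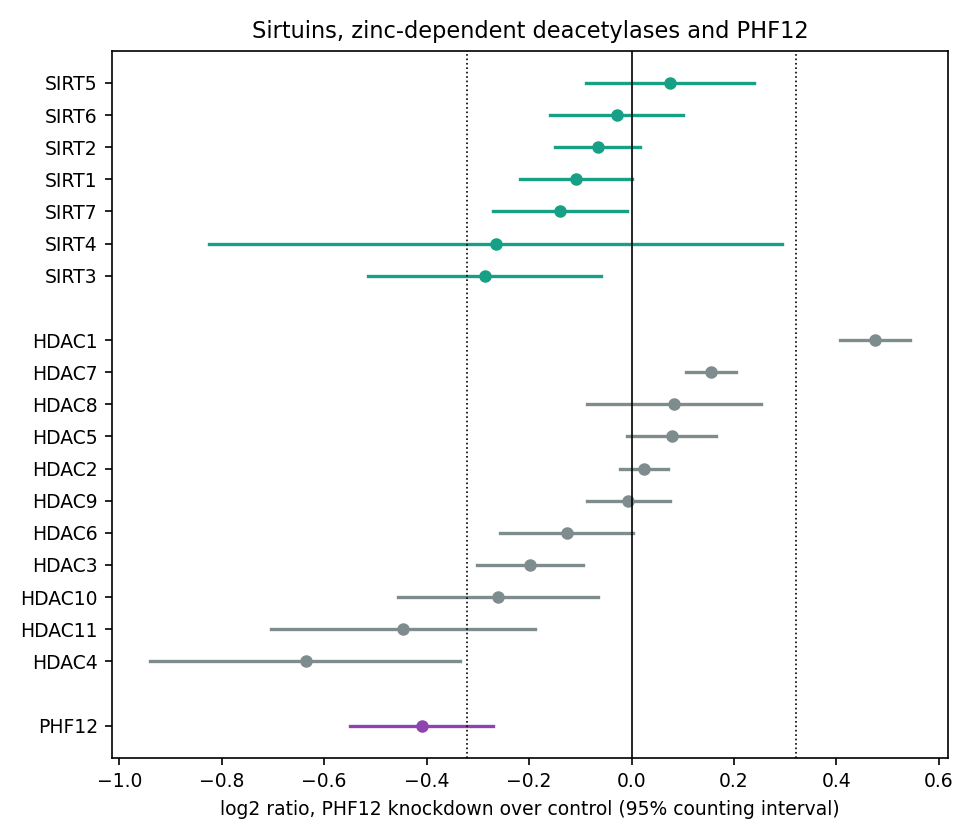
Log2 ratios of PHF12 knockdown over control with 95% counting intervals for the 7 sirtuins (green), HDAC1 to HDAC11 (grey) and PHF12 (purple), with dotted lines at −0.32 and 0.32. The sirtuin points lie between −0.29 and 0.08, all inside the dotted lines, and those of the zinc-dependent deacetylases between −0.64 and 0.48.

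The members were also compared with each other by the difference of their log2 ratios, which does not depend on how the libraries were scaled. Of 21 pairs, 2 had a 95% interval that excluded 0, with no adjustment for the number of pairs. The log2 ratio of SIRT3 minus that of SIRT5 was −0.36 (−0.65 to −0.08). That of SIRT5 minus that of SIRT7 was 0.21 (0.0037 to 0.43), with a lower end close to 0. For the other 19 pairs the interval included 0, and the widest ones were those with SIRT4.

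Levels per length gave the order SIRT2, SIRT6, SIRT1 and SIRT7 at the top in both libraries. SIRT2 exceeded SIRT6 by 1.5 times (1.39 to 1.62) in the knockdown library and 1.54 times (1.43 to 1.66) in the control library. SIRT6 exceeded SIRT1 by 1.73 times (1.59 to 1.88) in the knockdown library and 1.64 times (1.5 to 1.78) in the control library. SIRT1 and SIRT7 were close, at a ratio of 1.13 (1.04 to 1.23) in the knockdown library and 1.11 (1.02 to 1.20) in the control library.

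By the listed lengths the widest step came below SIRT7, which exceeded the next member, SIRT5, by 4.32 times (3.90 to 4.78) in the knockdown library and the next member, SIRT3, by 4.47 times (3.94 to 5.07) in the control library. SIRT5 lay above SIRT3 in the knockdown library at a TPM ratio of 1.15 (0.997 to 1.32), whereas SIRT3 lay above SIRT5 in the control library at a ratio of 1.12 (0.979 to 1.28). Neither ratio was separated from 1 by counting error. SIRT4 came last in both libraries, 2.76 times below SIRT3 (2.05 to 3.77) in the knockdown library and 2.50 times below SIRT5 (1.91 to 3.31) in the control library.

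Summed over the family, sirtuin transcripts came to 214.8 TPM in the knockdown library and 222.8 TPM in the control library. The nuclear members made up 54.3% of that sum in the knockdown library and 54.4% in the control library. SIRT2 made up 39.0% in the knockdown library and 38.7% in the control library. The mitochondrial members made up 6.74% in the knockdown library and 6.98% in the control library. These levels rest on the gene lengths listed in the table, which run from 1898 bases for SIRT6 to 10558 bases for SIRT5 and exceed the longest annotated coding transcript of each sirtuin in GENCODE release 29. With those transcripts' lengths (4382 bases for SIRT5, 1743 for SIRT7), SIRT7 passed SIRT1, at 57.6 against 35.1 TPM in the knockdown library and 62.4 against 37.2 TPM in the control library. The mitochondrial share then was 10.6% in the knockdown library and 10.9% in the control library, and the other places in the order were kept. The steps between the places changed with these lengths. SIRT1, the lowest of the top 4, then exceeded SIRT5 by 2.20 times (2.0 to 2.42) in the knockdown library and SIRT3 by 2.44 times (2.17 to 2.76) in the control library. SIRT5 exceeded SIRT3 by 1.26 times (1.09 to 1.45) in the knockdown library, and SIRT3 stood at 1.02 times SIRT5 (0.893 to 1.17) in the control library. SIRT6 exceeded SIRT7 by 1.12 times (1.02 to 1.23) in the knockdown library. In the control library that ratio was 1.04 (0.948 to 1.14), not separated from 1 by counting error. The largest step by value then was the one down to SIRT4. It was 2.70 times (2.01 to 3.69) in the knockdown library and 2.68 times (2.05 to 3.56) in the control library. In each library its interval overlapped that of the step below SIRT1. Gene counts do not separate the transcripts of a sirtuin, so isoforms were not compared.

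**Figure D3:**
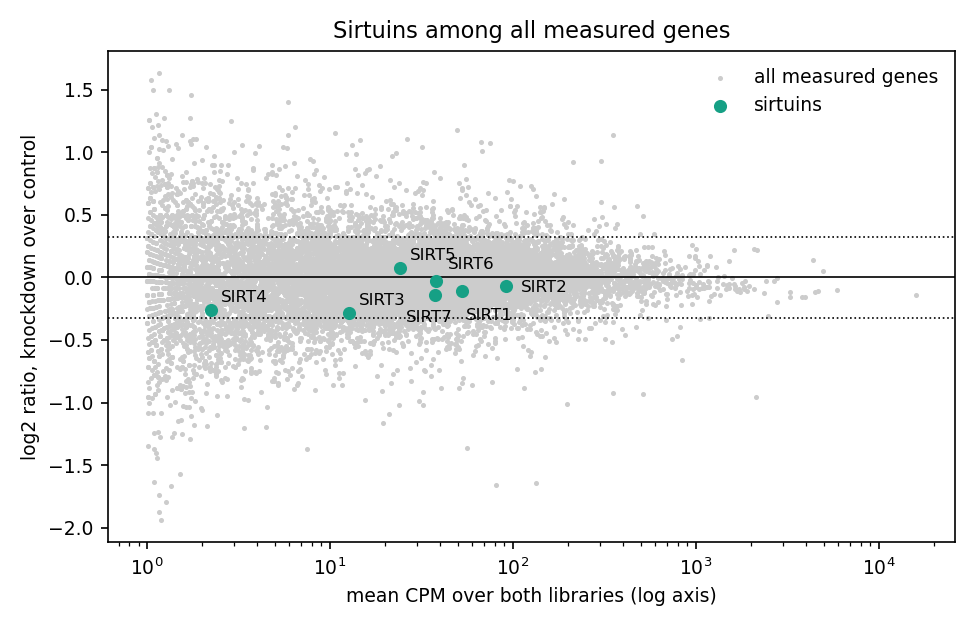
Log2 ratio of PHF12 knockdown over control against mean CPM (log axis) for the 14559 genes that reached 1 CPM on average (grey), with the sirtuins in green and dotted lines at −0.32 and 0.32. The sirtuins, between 2.23 and 92.1 mean CPM, lie inside the grey cloud and inside the dotted lines.

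Several sirtuin genes start next to a gene on the other strand, and the deposited positions allow each to be set beside its neighbours. Within 10 kb of the 7 sirtuins 21 genes are listed, of which 15 had a mean of at least 1 CPM. Of these, 0 were lower in the knockdown library by the limit of 0.32 and 2 were higher, the long non-coding RNA gene LOC105374937 and ANKRD24, where the shares over all genes measured were 9.41% lower and 8.28% higher.

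SIRT3 and PSMD13, which encodes a subunit of the proteasome lid, lie head to head with 40 bases between their listed starts. PSMD13 had 2700 counts (173.6 TPM) in the knockdown library and 2213 counts (148.3 TPM) in the control library, a log2 ratio of 0.20 (0.12 to 0.28), opposite in sign to SIRT3. The difference of the log2 ratios, PSMD13 minus SIRT3, was 0.49 (0.25 to 0.73). At its other end SIRT3 overlaps RIC8A, a chaperone gene of G protein alpha subunits, by 84 bases on opposite strands. RIC8A had 3230 counts in the knockdown library and 2716 in the control library, a log2 ratio of 0.17 (0.09 to 0.24). Because no strand setting is given, reads in the shared bases cannot be assigned with certainty, and their part in the values of SIRT3 was not tested.

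SIRT6 and ANKRD24 also start head to head, with 54 bases between them. ANKRD24 had 88 counts in the knockdown library and 55 in the control library, a log2 ratio of 0.59 (0.09 to 1.11), while SIRT6 was level. The difference, ANKRD24 minus SIRT6, was 0.62 (0.10 to 1.15), on few counts of ANKRD24.

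The bases between both pairs of starts are shown here because each pair shares 1 short stretch yet gave unlike ratios. For SIRT3, unlike ratios were not particular to the partner at that stretch. RIC8A minus SIRT3 was 0.45 (0.21 to 0.69) and BET1L minus SIRT3 was 0.29 (0.03 to 0.56), and neither gene starts head to head with SIRT3. The sequences are RefSeq promoter sequences of GRCh38.p14 on the plus strand, cut to the positions listed in the table, with the bases between the starts in capitals and 30 bases on either side in lower case. The stretch of SIRT3 and PSMD13 is chr11:236902-237001 and that of SIRT6 and ANKRD24 is chr19:4182534-4182647. The sirtuin is read leftwards and its partner rightwards.
SIRT3 and PSMD13: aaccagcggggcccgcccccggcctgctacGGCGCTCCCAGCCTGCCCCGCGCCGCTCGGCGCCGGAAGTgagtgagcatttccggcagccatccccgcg
SIRT6 and ANKRD24: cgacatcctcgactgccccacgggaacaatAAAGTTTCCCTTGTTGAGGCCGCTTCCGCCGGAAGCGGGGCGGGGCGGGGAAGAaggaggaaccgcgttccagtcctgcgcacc

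The stretch between SIRT3 and PSMD13 ends in CCGGAAGT, a core motif of ETS factors. The stretch of SIRT6 and ANKRD24 did not hold these exact letters but held CCGGAAGC, which differs in the last base only. The search counted exact matches, so it does not tell the 2 stretches apart by ETS-like motifs. Promoter windows of 300 bases were at hand for 6 of the sirtuins, 9 windows in all, and were searched on both strands. SIRT7 had no window and was not searched. CCGGAAGT was found in 4.14% of 35116 promoter windows of all genes and in 1 of the 9 sirtuin windows, of SIRT3. The E-box CACGTG was found in 7.26% of windows and in 1 of the 9 sirtuin windows, of SIRT1. The GC box GGGCGG was found in 45.0% of windows and in 6 of the 9 sirtuin windows, of SIRT1, SIRT3, SIRT5 and SIRT6. CCAAT was found in 34.6% of windows and in 2 of the 9, of SIRT2 and SIRT6. No motif is contained in another, and a match describes the letters only.

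At SIRT2 the head-to-head partner NFKBIB, an inhibitor of NF-kB, overlaps the first 231 bases of the gene. With no strand setting given, reads in these shared bases may belong to either gene. NFKBIB had 2117 counts in the knockdown library and 1979 in the control library, a log2 ratio of 0.01 (−0.08 to 0.10), and the difference from SIRT2 was 0.08 (−0.04 to 0.20). LOC105374937 overlaps the start of SIRT5 by 241 bases on the other strand. It had 52 counts in the knockdown library and 24 in the control library, a log2 ratio of 1.03 (0.31 to 1.79). The difference, LOC105374937 minus SIRT5, was 0.96 (0.21 to 1.74), on few counts of LOC105374937. Reads in those 241 bases may belong to either gene. NOL7, a nucleolar protein gene that begins 176 bases past the end of SIRT5, had a log2 ratio of 0.19 (0.12 to 0.25), and the difference from SIRT5 was 0.11 (−0.07 to 0.29).

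The small nuclear RNA genes RNU4-1 and RNU4-2 overlap SIRT4 on the other strand and had at most 1 count in either library. In poly(A)-selected RNA such counts do not show whether these genes were transcribed. The remaining neighbours with at least 1 CPM, HERC4 at SIRT1, CCER2 and RINL at SIRT2, BET1L at SIRT3, RANBP9 at SIRT5 and MAFG, MAFG-DT, NPB and PCYT2 at SIRT7, had log2 ratios between −0.11 for RINL and 0.13 for MAFG-DT. PCYT2 minus SIRT7 was 0.17 (0.02 to 0.33) and MAFG minus SIRT7 was 0.15 (8.4e-05 to 0.30), with lower ends close to 0. Besides these and BET1L, given above, the interval of the difference from the sirtuin included 0 for these neighbours.

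**Figure D4:**
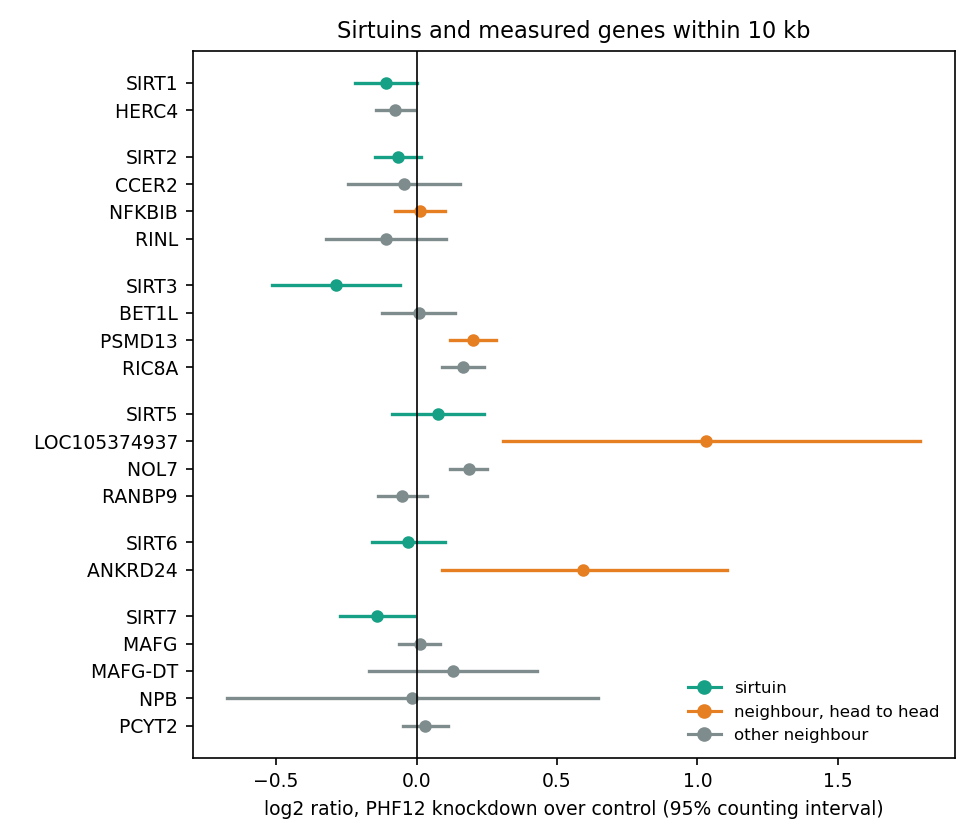
Log2 ratios of PHF12 knockdown over control with 95% counting intervals for each sirtuin (green) and the measured genes within 10 kb of it, head-to-head partners in orange and others in grey. PSMD13 at 0.20 and SIRT3 at −0.29 lie on opposite sides of 0 with intervals that do not overlap. SIRT4 has no neighbour that reached 1 CPM and is not drawn.

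The sirtuins were then set beside the zinc-dependent deacetylases HDAC1 to HDAC11, the other family of lysine deacetylases. Of these 11 genes, all measured, 2 were lower in the knockdown library by the same limit (HDAC4 at −0.64 and HDAC11 at −0.45) and 1 was higher (HDAC1 at 0.48, 0.41 to 0.54). The corresponding counts for the sirtuins were 0 lower and 0 higher of 7. Over all genes measured 9.41% were lower and 8.28% higher, so with so few members neither family's count stands apart from that background. The median log2 ratio of the zinc-dependent family was −0.0061. Its summed level was 572.6 TPM in the knockdown library and 511.6 TPM in the control library, while that of the sirtuins was 214.8 TPM in the knockdown library and 222.8 TPM in the control library. HDAC1 had 4330 counts (186.8 TPM) in the knockdown library and 2936 counts (132.0 TPM) in the control library.

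Genes that make or carry NAD+, the sirtuins' cosubstrate, came to 11 measured of 20 listed, of which 3 were lower and 0 higher, with a median log2 ratio of −0.12. As for each list below, this is to be read against the 9.41% lower and 8.28% higher over all genes measured. NAMPT, the enzyme that returns nicotinamide to the NAD+ pool, had 3604 counts in the knockdown library and 3569 in the control library, a log2 ratio of −0.07 (−0.14 to −0.0034). That interval ended just below 0 under TMM scaling only. The other scalings moved the ratio to between −0.064 and −0.052, which is enough for the interval to include 0. The 3 lower genes were NMNAT3, a mitochondrial enzyme that forms NAD+ from its mononucleotide, NADSYN1, the NAD+ synthetase, and NMRK1, a nicotinamide riboside kinase. NMNAT3 had 76 counts in the knockdown library and 122 in the control library, a log2 ratio of −0.77 (−1.20 to −0.34). NADSYN1 stood at −0.44 (−0.61 to −0.26) and NMRK1 at −0.34 (−0.64 to −0.03). NMRK1 was inside the limit with DESeq2 size factors, the deposited TPM or a pseudocount of 0.5, each of which left 2 lower genes.

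Other users of NAD+, mainly the PARP family of ADP-ribosyltransferases, came to 16 measured of 20 listed, with 0 lower, 2 higher and a median of 0.02. With so few members these counts do not stand apart from the 9.41% and 8.28% over all genes. The higher ones were PARP10 at 0.44 (0.18 to 0.70) and PARP9 at 0.41 (0.30 to 0.53), the second of which overlaps DTX3L on the other strand. PARP1, the main DNA damage sensor of the family, stood at −0.11 (−0.18 to −0.03).

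Of 13 listed regulators of sirtuins, all measured, 0 were lower and 0 higher, with a median of −0.03. CCAR2, whose protein binds and inhibits SIRT1, had 4589 counts in the knockdown library and 4015 in the control library, a log2 ratio of 0.11 (0.05 to 0.17), and overlaps BIN3 on the other strand. RPS19BP1, which encodes a small SIRT1-binding protein described as an activator, had 1849 counts in the knockdown library and 1886 in the control library, a log2 ratio of −0.11 (−0.21 to −0.02).

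Genes whose proteins are deacylated by nuclear and cytosolic sirtuins came to 27 measured of 28 listed, with 2 lower, 1 higher and a median of −0.08. Among the lower ones was FOXO1, the gene of a forkhead transcription factor, with 75 counts in the knockdown library and 93 in the control library, whose interval of −0.85 to 0.06 included 0. PPARGC1A, the gene of the SIRT1 substrate PGC-1alpha, was the higher one at 0.33 (0.02 to 0.64), and was inside the limit with a pseudocount of 0.5.

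Substrates of the mitochondrial sirtuins came to 17 measured of 21 listed, with 1 lower, 2 higher and a median of −0.03. These counts, too, do not stand apart from the 9.41% and 8.28% over all genes. The higher ones were LONP1, the mitochondrial Lon protease, which overlaps RPL36 by 42 bases on the other strand, at 0.53 (0.46 to 0.59) and MLYCD, the malonyl-CoA decarboxylase on which SIRT4 acts, at 0.44 (0.29 to 0.58). The lower one was ACADL at −0.40 (−0.90 to 0.10), on 62 counts in the knockdown library and 77 in the control library. Glycolytic genes that SIRT6 is known to repress came to 9 measured of 10 listed, with 0 lower, 0 higher and a median of −0.14.

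**Figure D5:**
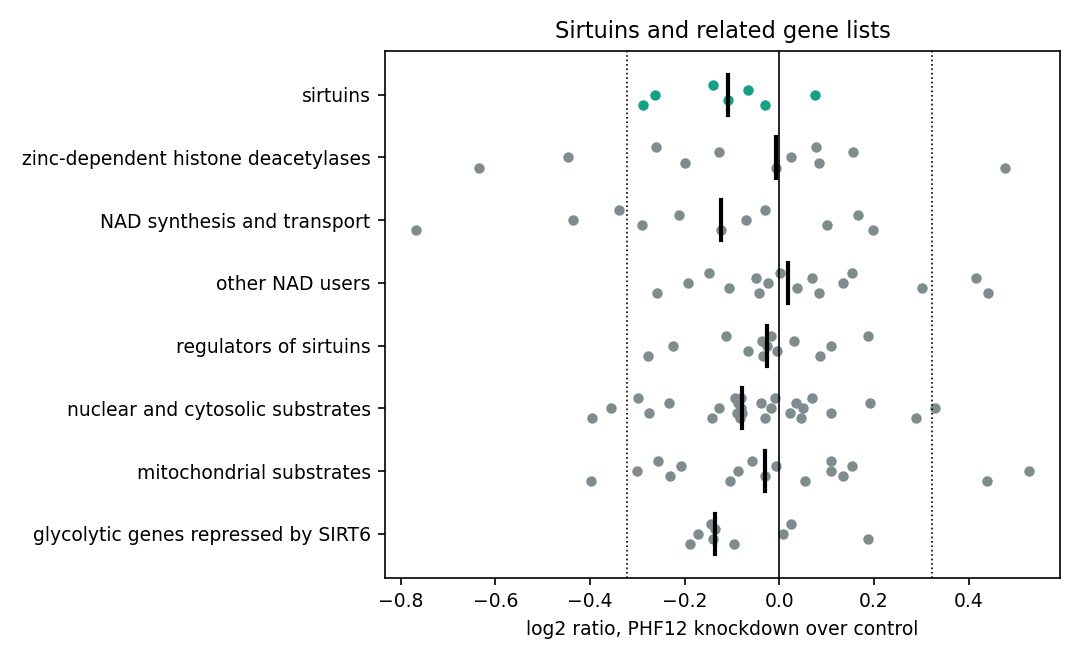
Log2 ratios of PHF12 knockdown over control for the measured members of the sirtuin family (green) and of 7 related lists (grey), each point a gene, with a black bar at the list's median and dotted lines at −0.32 and 0.32. The sirtuins and the regulators of sirtuins lie wholly within the dotted lines, as do the glycolytic genes repressed by SIRT6, while the other 5 lists have members beyond them.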

How the data were processed

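The submitters' processing notes name HISAT2, HTSeq and hg38, without versions; the strand setting is not given in the sources at hand. Raw gene counts and TPM values are what the authors deposited, per the file headers, and dividing counts by the listed lengths returns the TPM. Each column was matched to a sample by its title, and groups come from the treatment label.

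From the deposited counts, TMM factors were computed with edgeR 4.0.16 (R 4.3.3). Genes below 1 CPM on average were left out. Log2 ratios of scaled counts carry no pseudocount, and intervals are exact conditional Clopper-Pearson (ratios), exact conditional odds ratio (differences of ratios) or exact Poisson (levels) at 95%. The ratio intervals and the size limit were tested on simulated counts with Poisson error only. Such counts hold no variation between cultures, so that variation was not tested. Genes were counted as lower or higher from a ratio of 5 to 4, a log2 ratio of 0.32. Python 3.11.15 with scipy 1.17.1 was used throughout.

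The members and lists were chosen with earlier results of these data known. Named genes are the sirtuins, PHF12, HDAC1, NAMPT, PARP1, CCAR2, RPS19BP1, genes within 10 kb of a sirtuin, and list members past that ratio whose interval excludes 0, of which 1 is not reported here; FOXO1, ACADL and the cell type markers are named besides. With 2 libraries no likeness of pattern between genes can be measured. Alternatives were total-count, upper-quartile and DESeq2 1.42.0 scaling, deposited TPM, a pseudocount of 0.5, other expression minima and larger folds.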

Additional observations from a re-analysis of the deposited data

How the results depend on the processing

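The 7 sirtuin ratios, recomputed under 3 other scalings, the deposited TPM and a pseudocount of 0.5 (35 values), all stayed within their counting intervals and kept their sign. Each of the 3 scalings and the TPM moves all genes by the same amount. The median over all genes measured went from −0.0074 to between −0.00070 and 0.018. These shifts are small beside the intervals, so staying inside the intervals was settled in advance and does not check any single sirtuin. The family's median ranged from −0.11 to −0.08, also with no expression filter or a minimum of 5 CPM. Under any of these settings 0 sirtuins were lower or higher by the limit of 0.32, and 0 by a fold of 1.5 or 2 follows from that. The number whose interval excludes 0 was 1 (SIRT3) under total-count scaling and DESeq2 size factors, against 2 with TMM. With the longest GENCODE coding transcripts as lengths, chosen after the data were seen, 2 sirtuins changed place in each library, the nuclear share was 50.2% in the knockdown and 50.4% in the control library, and the mitochondrial share 10.6% in the knockdown and 10.9% in the control library. For nuclear and cytosolic substrates the median was −0.060 with DESeq2 size factors, −0.054 with TPM and −0.059 at 5 CPM, the number lower was 1 at 5 CPM, and the number higher was 0 with the pseudocount. For mitochondrial substrates the number lower was 2 with no filter and 0 at 5 CPM, and for glycolytic genes 1 with no filter. Smaller shifts were in NAD+ synthesis genes, with 2 lower under DESeq2 size factors, TPM, the pseudocount or 5 CPM and 4 with no filter, against 3; in other NAD+ users, with 3 higher under TPM, against 2; and in mitochondrial substrates, with 3 higher with no filter, against 2. The other counts of genes in the lists were the same under the settings run. No paired analysis was possible because each group has 1 library. Depth limits SIRT4 most, at 53 counts in the knockdown and 60 in the control library.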
